A study of Mus musculus with 4 samples.

Results

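The proteasome genes of the mouse small intestine were examined in single cells. They were taken by symbol: every gene whose symbol begins with Psma, Psmb, Psmc or Psmd followed by a digit, and the genes Psme1, Psme2 and Psme3. By this rule, 43 of the 32286 features counted in each library were members. The constitutive catalytic subunits Psmb5, Psmb6 and Psmb7 were set against their immune counterparts Psmb8, Psmb9 and Psmb10 across cell types and in each mouse.

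The proteasome is the protease that degrades proteins tagged with ubiquitin. Its 20S core is a barrel of alpha rings (Psma genes) around beta rings (Psmb genes), and only the beta subunits Psmb5, Psmb6 and Psmb7 cut peptide bonds. In the immunoproteasome, Psmb8 takes the place of Psmb5, Psmb9 that of Psmb6 and Psmb10 that of Psmb7. Interferon gamma induces these immune subunits, and lymphocytes express them without induction. The 19S particle (Psmc and Psmd genes) binds ubiquitin and unfolds the substrate, whereas the 11S activators Psme1 and Psme2, also induced by interferon gamma, open the core to peptides. Peptides from the proteasome are carried into the endoplasmic reticulum and presented on MHC class I molecules.

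Cells were isolated from the distal jejuna of 4 adult male mice, each taken 18.5 h after intestinal ischemia–reperfusion (I/R) injury, in which the superior mesenteric artery was clamped and then released. The 2 Control mice carried Foxc1fl/fl and Foxc2fl/fl without Cre, and the 2 EC-Foxc-DKO mice carried Cdh5-CreERT2 on the same floxed alleles, so that tamoxifen deletes both transcription factor genes in Cdh5-expressing endothelial cells, blood and lymphatic. By the paper's methods, the adult mice were given tamoxifen by oral gavage before the surgery. All 4 mice had the injury, and no uninjured jejunum was analysed here. Each mouse gave 1 library of unique molecular identifier (UMI) counts, in which every captured RNA molecule counts once whatever its length. The targeted genes were sparse in BEC-like cells: Foxc1 had 1 and 5 UMIs in Control and 1 and 0 in EC-Foxc-DKO mice, Foxc2 had 0 in each mouse, and Cre had 0 in each Control mouse and 3 and 2 in EC-Foxc-DKO mice. The deletion could not be checked at this depth.

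The libraries held 3623 to 7347 barcodes and 15557181 to 72046346 UMIs, and 5615 of the 22679 barcodes in all had at most 10% mitochondrial UMIs and were kept. Control replicate 2 stood apart, with 348 kept cells, the fewest UMIs and a median mitochondrial share of 54.0% over its barcodes, against 15% to 25.8% in the other libraries. There were 51 barcodes found in more than 1 library, and 24 kept cells carried such a barcode. The cells fell into 25 clusters, of which 24 were named from markers, giving 22 cell types written here as "X-like". BEC and LEC stand for blood and lymphatic endothelial cells, and Crypt, Bottom, Middle and Top follow the villus from its base. Erythroid-like cells (189, median 1038 UMIs) also held Bottom enterocyte markers. In a finer clustering (resolution 1.0) only 45 cells had this name. An unnamed cluster of 145 cells there shared the leading genes Pbld2 and Ptgr1 with them and had Bottom enterocyte as its best match. Gamma delta T cell genes were among the leading genes of the CD8+ T-like cells. In 15 types, at least 3 mice had 10 or more cells. The types with 10 cells in all 4 mice numbered 8: B (1378 cells), Bottom enterocyte (683), CD8+ T (410), Macrophage (297), Crypt (217), BEC (171), Plasma (102) and Enteric glia (92). EC-Foxc-DKO replicate 1 gave 1204 of the 1378 B-like cells.

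The members lay on 16 chromosomes. Psmb9 (chromosome 17, 34181987 to 34187764, minus strand, GRCm38) and Psmb8 (chromosome 17, 34197721 to 34201454, plus strand) lie close together in the MHC region, where Psmb9 overlaps the peptide transporter gene Tap1 on the opposite strand. Psmb10 lies apart from them, on chromosome 8 (105935735 to 105938444, minus strand). Stretches of 30 bases upstream of the start are shown for 2 constitutive catalytic genes, Psmb5 and Psmb6, whose promoter windows held the same searched motif. A link between the motif and their levels was not tested. The windows came from RefSeq (GRCm38.p6) and ran from 250 bases before to 50 bases after the gene start, and capitals mark the motif.
Psmb5, chr14:54618024-54618053, minus strand, TGACNNNGC at positions -47 to -39: acgtgaagttgTGACGTCGCggcgttgcca
Psmb6, chr11:70525327-70525356, plus strand, TGACNNNGC at positions -9 to -1: acagaggcggactaaagagagTGACGGAGC
TGACNNNGC is the core of the antioxidant response element. Both strands were searched. A window was at hand for 36 members. TGACNNNGC was in 5 of them (13.9%, Psmb5, Psmb6, Psmc6, Psmd12 and Psmd9) and in 14% of the windows of 27025 genes. The interferon-stimulated response element, GAAA repeated after any 2 bases, was in 4 (11.1%, Psmb3, Psmd4, Psmd9 and Psme1) and in 3.99% of all windows.

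The balance of immune to constitutive catalytic subunits was taken as the UMIs of Psmb8, Psmb9 and Psmb10 over those of Psmb5, Psmb6 and Psmb7 in the same mouse and cell type, a value that needs no scaling between libraries. Among types with at least 3 mice, it was highest in lymphocytes and lowest in crypt cells. In CD8+ T-like cells the ratio was 2.81 and 2.59 in Control and 2.59 and 2.05 in EC-Foxc-DKO mice (mean 2.51 ± 0.32, SD, n = 4). In Crypt-like cells it was 0.33 and 0.23 in Control and 0.37 and 0.33 in EC-Foxc-DKO mice (mean 0.316 ± 0.060, SD, n = 4). The lowest CD8+ T-like value lay above the highest Crypt-like value, and the means differed 7.96-fold. B-like cells had ratios of 1.94 and 3.00 in Control and 2.22 and 2.25 in EC-Foxc-DKO mice, and CD4+ T-like cells 2.68, 2.40 and 2.44 in the 3 mice with 10 or more cells. The value of 3.00 rested on 33 immune and 11 constitutive UMIs, with a 95% interval of 1.48 to 6.58. The exact binomial intervals cover counting error only, and a two-sided exact test of 4 paired mice cannot give a p below about 0.13, so these ratios are given as a description.

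**Figure D1:**
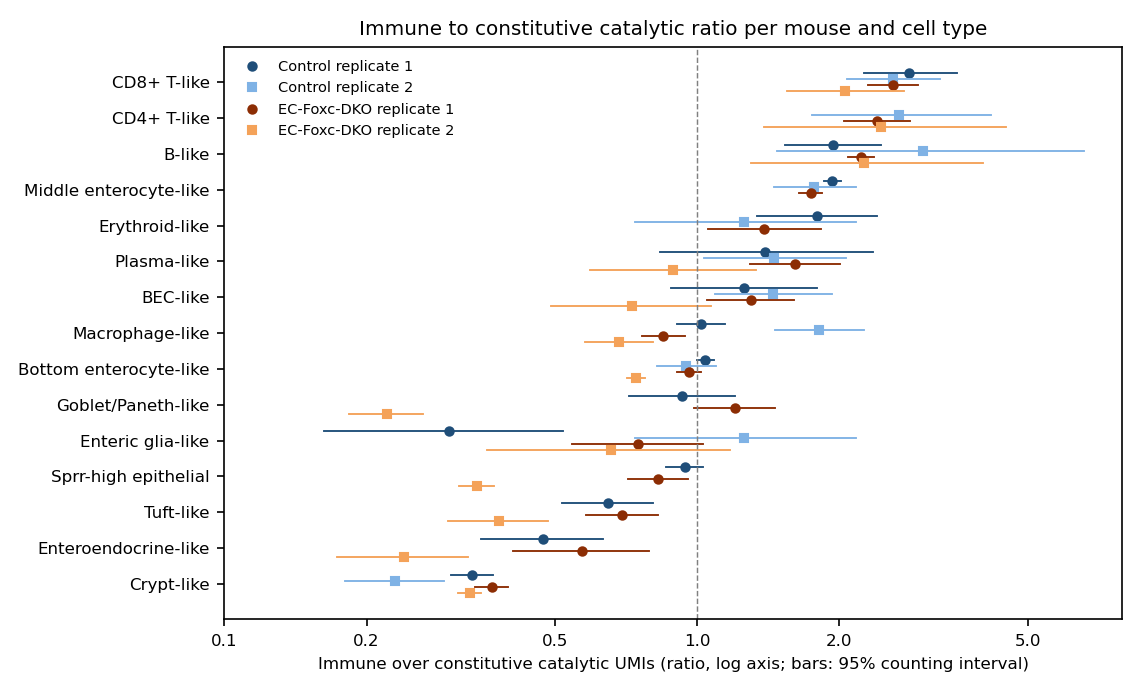
Ratio of immune (Psmb8, Psmb9, Psmb10) to constitutive (Psmb5, Psmb6, Psmb7) catalytic UMIs on a log axis, with 1 point per mouse and bars for the 95% counting interval, in the 15 cell types with at least 3 mice of 10 or more cells, ordered by their mean. T- and B-like cells lie to the right of the dashed line at a ratio of 1 in every mouse shown, and Crypt-like cells to its left.

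Across the 15 types the order of the mean ratios ran from CD8+ T, CD4+ T and B through Middle enterocyte (1.81 ± 0.10, n = 3), Erythroid (1.48), Plasma (1.34), BEC (1.18), Macrophage (1.09) and Bottom enterocyte (0.923 ± 0.13, n = 4) to Goblet/Paneth (0.784), Enteric glia (0.741), Sprr-high epithelial (0.703), Tuft (0.574), Enteroendocrine (0.428) and Crypt. Of the 14 neighbouring pairs in this order, 12 differed by less than the larger of their 2 SDs. The exceptions were B against Middle enterocyte and Middle enterocyte against Erythroid. The latter also held Bottom enterocyte markers, so its ratio cannot be credited to erythroid cells alone. The means rest on unlike sets of mice. Those of Middle enterocyte and Erythroid leave out EC-Foxc-DKO replicate 2, which had 8 cells of each. Without that mouse the mean was 1.49 in Plasma and 1.33 in BEC-like cells. B- and CD8+ T-like cells lay above Bottom enterocyte-like cells in 4 of 4 mice, Plasma-like cells also in 4 of 4, BEC-like cells in 3 of 4 and Macrophage-like cells in 1 of 4. Within the B lineage, Plasma-like cells (1.39, 1.46, 1.61 and 0.89) lay below the B-like cells of the same mouse in 4 of 4 mice. Germinal center B-like cells, with 1.57 and 1.81 in EC-Foxc-DKO mice, lay below them in both mice compared. In types with 2 such mice, Myocyte/pericyte-like cells had a mean ratio of 0.242 (0.205 to 0.28), below the Crypt-like mean of 0.316. It rested on 34 immune and 157 constitutive UMIs. The mean was 0.699 in Stromal fibroblast-like and 1.57 in Neutrophil-like cells (0.963 to 2.18). Where only 1 mouse had 10 cells, Plasmacytoid dendritic-like cells had a ratio of 3.27 (EC-Foxc-DKO replicate 1, 95% interval 2.32 to 4.70) and LEC-like cells one of 2.64 (Control replicate 2, 1.28 to 5.85).

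Along the villus the ratio was low in the crypt, higher in the middle and lower again at the top. Crypt-like cells lay below Bottom enterocyte-like cells of the same mouse in 4 of 4 mice, and Bottom below Middle enterocyte-like cells in 3 of 3. In the 2 mice with 10 Top enterocyte-like cells, the ratio there was 0.95 (Control) and 0.91 (EC-Foxc-DKO), below the Middle enterocyte-like value of the same mouse (1.93 and 1.74). The Middle enterocyte-like cells came from 2 clusters, with ratios of 1.83, 1.89 and 1.73 in the first (Control replicates 1 and 2 and EC-Foxc-DKO replicate 1) and 2.13 and 1.75 in the second (Control replicate 1 and EC-Foxc-DKO replicate 1). The second expressed Ubd, a ubiquitin-like modifier that targets proteins to the proteasome, at 111 and 43.9 CPM (UMIs per 1000000 of the same mouse and type) against 2.68 to 9.49 CPM in the first. Both clusters thus held more immune than constitutive catalytic UMIs in each mouse.

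The 3 immune subunits did not all share a pattern: over the cell types Psmb8 and Psmb9 moved together, and Psmb10 followed neither. Psmb8, which replaces the chymotrypsin-like subunit Psmb5, was at 494 and 482 CPM in CD8+ T-like cells of the Control mice and at 554 and 314 CPM in those of the EC-Foxc-DKO mice. In Crypt-like cells it was at 73.2 and 25.3 CPM and at 67.4 and 63.3 CPM in the same order. Bottom enterocyte-like cells lay between these values, at 155, 149, 139.5 and 107 CPM. Psmb8 over Psmb5 was 3.15 ± 0.34 in B, 3.14 ± 0.49 in CD8+ T, 2.32 ± 0.070 in Middle enterocyte, 0.815 ± 0.15 in Bottom enterocyte and 0.190 ± 0.068 in Crypt-like cells (SD over 4 mice, or 3 for Middle enterocyte). The pair thus passed from more Psmb8 than Psmb5 in lymphocytes to the reverse in the crypt.

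Psmb9, which replaces Psmb6, was the immune subunit with the fewest UMIs in the kept cells (6546, against 15884 for Psmb8 and 15582 for Psmb10). It was at 179, 131, 141 and 134 CPM in CD8+ T-like cells, at 78.4, 69.5, 81.1 and 72.4 CPM in Bottom enterocyte-like cells and at 52.5, 29.2, 72.6 and 58.3 CPM in Crypt-like cells (Control replicates 1 and 2, then EC-Foxc-DKO replicates 1 and 2). The Bottom enterocyte-like and Crypt-like ranges overlapped. Psmb9 over Psmb6 was 1.12 ± 0.14 in CD8+ T, 0.321 ± 0.029 in Bottom enterocyte and 0.150 ± 0.047 in Crypt-like cells. In B-like cells it was 1.95 with an SD of 1.3 and a range of 0.854 to 3.5.

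Psmb10, which replaces the trypsin-like subunit Psmb7, had overlapping ranges of CPM in Bottom enterocyte-like and CD8+ T-like cells. It was at 265, 240.1, 239 and 201 CPM in Bottom enterocyte-like cells and at 239, 204, 273 and 187 CPM in CD8+ T-like cells. In Top enterocyte-like cells its mean was 62 CPM (n = 2). B-like cells lay below Bottom enterocyte-like and CD8+ T-like cells, at 103, 94.5, 111 and 49.1 CPM. Even in Crypt-like cells, at 163, 113, 171 and 137 CPM, Psmb10 reached the level of Psmb7 (Psmb10 over Psmb7 0.940 ± 0.12, n = 4). The same pair stood at 4.5 ± 1.5 in CD8+ T, 4.45 ± 0.73 in Middle enterocyte, 2.85 ± 0.45 in Bottom enterocyte, 2.33 ± 0.30 in BEC and 1.99 ± 0.95 in B-like cells. The immune subunit with the highest mean level thus differed between types, Psmb8 in B-like and CD8+ T-like cells and Psmb10 in Bottom enterocyte-like and Crypt-like cells.

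**Figure D2:**
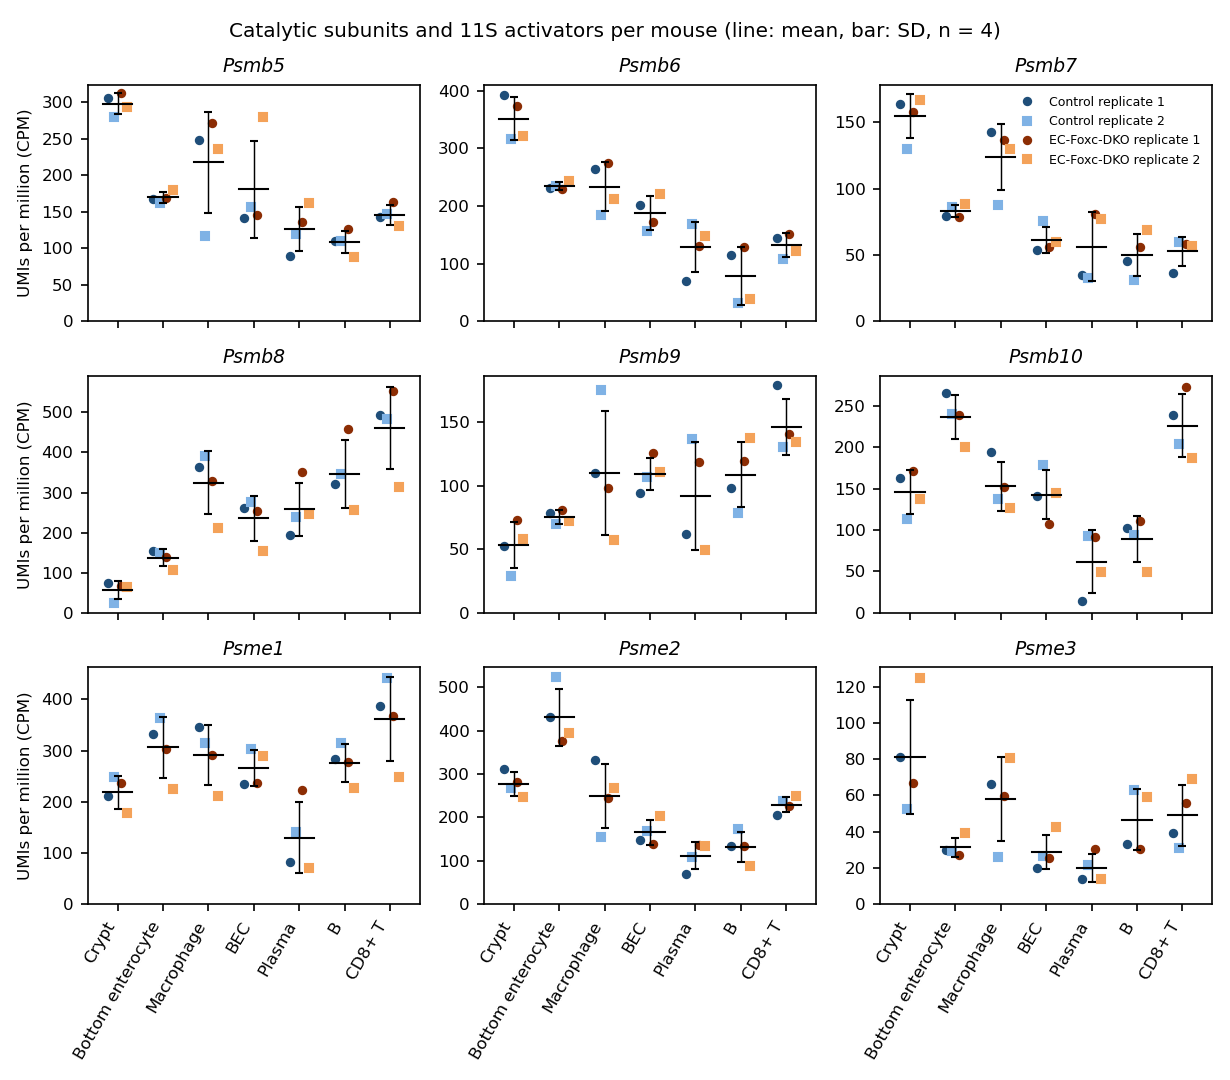
Levels in CPM of the catalytic subunits and 11S activators in 7 cell types, with 1 point per mouse, a line at the mean and a bar for the SD (n = 4). Psmb5, Psmb6 and Psmb7 have their highest mean in Crypt-like cells, Psmb8 and Psmb9 in CD8+ T-like cells, and Psmb10 and Psme2 in Bottom enterocyte-like cells.

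Over the 15 cell types, the mean CPM of Psmb8 and Psmb9 moved together (Spearman's rho 0.88, Pearson's r 0.92), but Psmb10 followed neither (rho 0.16 with Psmb8 and 0.27 with Psmb9). The member most like Psmb10 was the 11S activator Psme2 (rho 0.88, r 0.87), followed by Psme1 (rho 0.72, r 0.69). After each other, Psmb8 and Psmb9 were both most like Psme1 (rho 0.54 and 0.69). The summed CPM of 10 interferon gamma pathway genes tracked Psmb8 (rho 0.76) and Psmb9 (rho 0.73) more closely than Psmb10 (rho 0.30). Psmb8 ran opposite to Psmb7 (rho -0.72) and Psmb6 (rho -0.71), and less so to Psmb5 (rho -0.51), the subunit it replaces. Psmb5 and Psmb6 ran together (rho 0.88). These are descriptions over 15 types that come from the same 4 libraries and differ in depth, and they carry no test.

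The constitutive catalytic subunits were highest in Crypt-like cells, with Psmb5 at 298 ± 14, Psmb6 at 351 ± 37 and Psmb7 at 155 ± 17 CPM (SD, n = 4). In B-like cells, Psmb5 was at 109 ± 15, Psmb6 at 78.4 ± 50 and Psmb7 at 50.4 ± 16 CPM. In CPM, Crypt-like cells also led for many other subunits. Of the 40 members tested between cell types, 29 had their highest mean CPM in Crypt-like cells: 7 of 7 alpha subunits, 4 of 4 non-catalytic beta subunits, 3 of 3 constitutive catalytic subunits, 6 of 6 ATPases and 6 of 8 lid subunits, but 1 of 3 non-ATPase subunits of the 19S base, 1 of 3 assembly factors of the 19S particle, 1 of 3 11S activators and 0 of 3 immune subunits. This ranking is of CPM without TMM scaling, and the share of all genes that peak in Crypt-like cells was not counted. Against Bottom enterocyte-like cells, 33 members were higher in Crypt-like cells by library size, for which the share of all genes was not counted. With TMM scaling 8 members were higher, while 28.8% of all genes tested were. The sum over all members was 7976 ± 978 CPM in Crypt-like, 5491 ± 170 CPM in Bottom enterocyte-like and 3928 CPM in B-like cells. Between the highest and the lowest of the 15 types, the immune subunits ranged 8.73-fold (Psmb9), 8.05-fold (Psmb8) and 3.83-fold (Psmb10), against a median of 3.63-fold over the 40 members. Another member with a wide range was Psmd7, a lid subunit (7.43-fold), at 323, 198, 312 and 262 CPM in Crypt-like cells against 74.9, 79.2, 85.9 and 66.1 CPM in Bottom enterocyte-like cells.

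**Figure D3:**
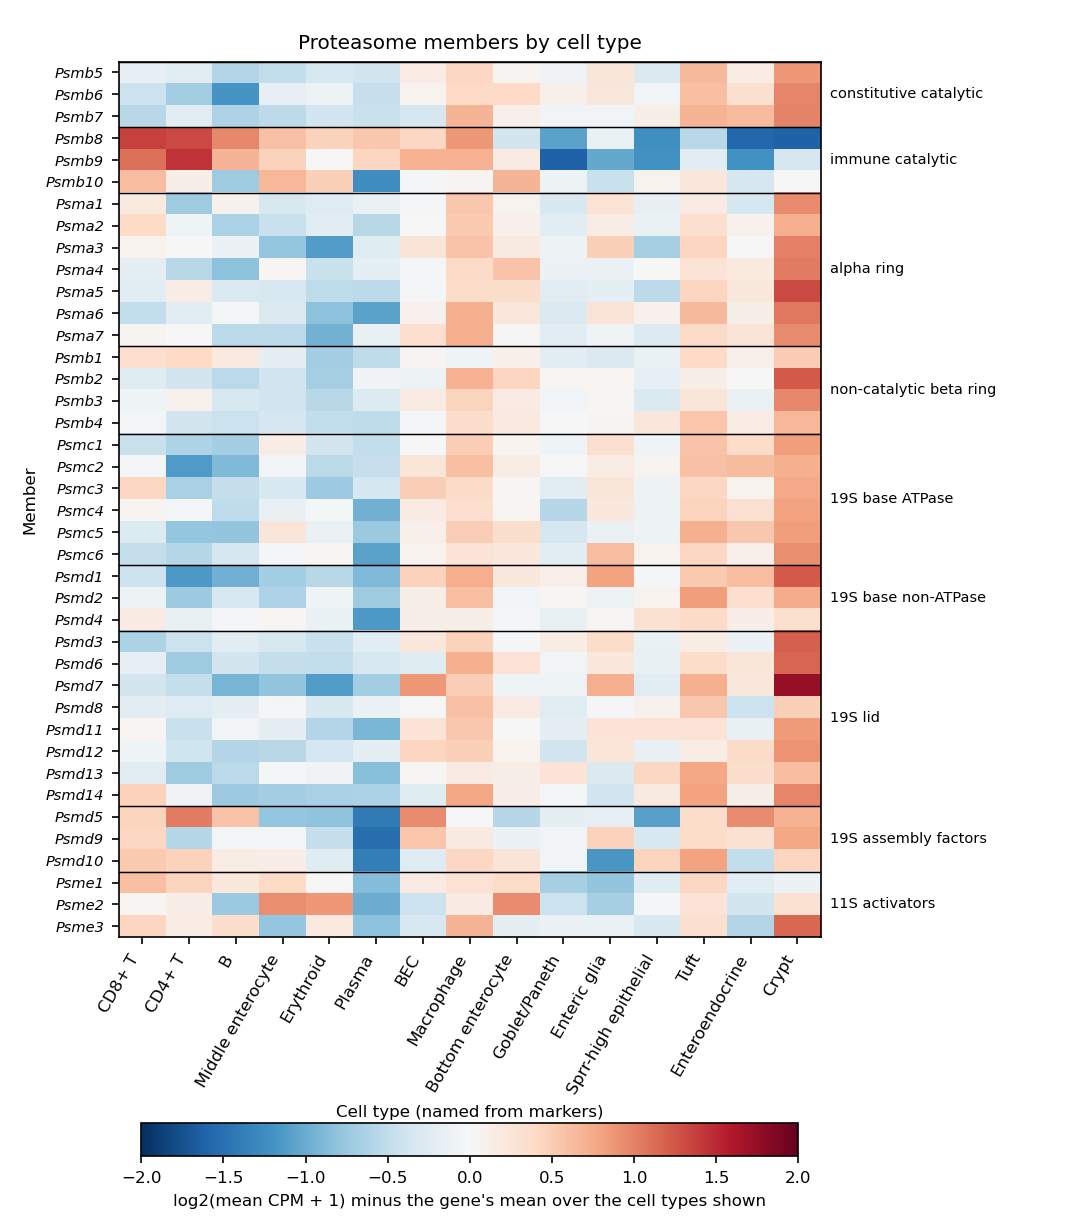
Mean level of 40 members in the 15 cell types, as log2(mean CPM + 1) minus the gene's own mean over the types, grouped by role. The Crypt-like column is above the mean for most core and 19S subunits and far below it for Psmb8, and the Psmb8 and Psmb9 rows are highest in the T-like columns.

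Members with hardly any reads were the spermatogenesis subunit Psma8 (10 UMIs in 7 of the 5615 kept cells) and the thymus subunit Psmb11 (2 UMIs in 2 cells), the latter under a floor of 3 UMIs in all kept cells (0.0349 CPM). Psmc3ip shares its symbol with the ATPase Psmc3 but encodes a recombination factor, not a subunit. It had 233 UMIs, with means of 6.92 CPM in Crypt-like and 6.87 CPM in B-like cells and 0.193 CPM in Bottom enterocyte-like cells. Its highest mean among the 15 types was 14.2 CPM in Enteric glia-like cells, of which there were only 92. These 3 members did not pass the filter on low counts between cell types.

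Among the 11S activators, Psme2 differed between Bottom enterocyte-like and B-like cells. It was at 430.0, 523, 376 and 394 CPM in Bottom enterocyte-like cells and at 134, 173, 134 and 88.5 CPM in B-like cells, with no overlap. Psme1, its partner in the heptamer, was at 333, 363, 304 and 226 CPM in Bottom enterocyte-like and at 284, 315, 278 and 226 CPM in B-like cells, and these ranges overlapped. Psme3, which forms a nuclear activator of its own, was at 81.3, 52.5, 66.7 and 125 CPM in Crypt-like cells, above all 4 Bottom enterocyte-like values (29.7, 29.2, 27.4 and 39.1 CPM). The ratio of Psme1 and Psme2 to Psme3 was 24.2 ± 6.0 in Bottom enterocyte-like and 6.86 ± 2.7 in Crypt-like cells (SD, n = 4). Psme2b, a near copy of Psme2 outside the rule, may share reads with it.

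In Top enterocyte-like cells the mean level of each of the 40 members was below its Bottom enterocyte-like mean, at 9.51% (Psma3) to 83.1% (Psmd9) of it. These levels are CPM without TMM scaling, and the share of all genes lower in Top enterocyte-like cells was not counted. The 14 constitutive core subunits summed to 641 ± 23 CPM there (n = 2) against 2738 ± 82 CPM in Bottom enterocyte-like cells (n = 4), and the 17 subunits of the 19S particle to 686 ± 20 against 1469 ± 19 CPM. In the Control mouse with these cells the 19S to core ratio was 1.12, and in the EC-Foxc-DKO mouse 1.02, whereas the means of the other types with at least 2 mice lay between 0.439 (CD4+ T) and 0.714 (Myocyte/pericyte). By class, alpha subunits stood at 9.51% to 39.3% of their Bottom enterocyte-like mean (median 21%). Non-catalytic beta subunits stood at 12.8% to 33.2% (median 20.6%) and constitutive catalytic subunits at 28.6% to 34.8% (median 29.3%). In the 19S particle, lid subunits stood at 21.6% to 79.1% (median 32.9%) and ATPases at 31.5% to 67.5% (median 41.5%). The non-ATPase subunits of the base stood at 23.6% to 76% (median 47%). The medians were lower in the constitutive core classes, but the ranges overlapped. Psma3 was at 18.4 and 21.3 CPM in the 2 mice with Top enterocyte-like cells and at 186, 244, 198 and 207 CPM in Bottom enterocyte-like cells. The ubiquitin receptor Psmd4 was at 101 and 84.1 CPM against 122, 132, 124 and 109 CPM. With 2 mice, 1 of each genotype, no test was made.

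Cell types were then compared in the summed counts of each mouse, with edgeR's quasi-likelihood test, the mouse as a block, TMM scaling and Bottom enterocyte-like cells as the reference. TMM sets the libraries to a common level over most genes, and adjusted p-values are over the 9873 genes tested. In B-like cells 2 of the 40 members were higher and 30 lower than in Bottom enterocyte-like cells, while 38.7% of all genes tested were higher and 32.8% lower. In CD8+ T-like cells 1 member was higher and 26 lower (38.1% and 32% of all genes), in BEC-like cells 1 and 30 (35.7% and 29.3%), in Macrophage-like cells 2 and 4 (39.7% and 29%) and in Crypt-like cells 8 and 5 (28.8% and 28.7%). The members' median log2 fold change was -0.70 in B, -0.63 in CD8+ T, -0.79 in BEC, 0.11 in Macrophage and 0.32 in Crypt-like cells, beside medians over all genes of 0.20, 0.16, 0.19, 0.24 and 0.01.

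These counts depended on the scaling. With library size in place of TMM, which moved the median over all genes to 0.33 in B, 0.65 in CD8+ T, 0.91 in BEC, 0.55 in Macrophage and 0.46 in Crypt-like cells, 2 members were higher and 22 lower in B, 5 and 12 in CD8+ T, 4 and 4 in BEC, 18 and 2 in Macrophage and 33 and 4 in Crypt-like cells. With DESeq2 the counts were 2 and 34, 2 and 32, 2 and 30, 3 and 11, and 8 and 9. Its medians over 21420 genes were 1.28 in B, 1.03 in CD8+ T, 1.46 in BEC, 0.74 in Macrophage and 0.25 in Crypt-like cells. The shares of all genes called with library size, with DESeq2 or under all 3 settings were not counted. Under all 3 of these settings, 1 member was higher and 22 lower in B, 1 and 12 in CD8+ T, 1 and 4 in BEC, 2 and 2 in Macrophage and 7 and 4 in Crypt-like cells. Psmb8 was the member higher in B- and CD8+ T-like cells under all 3, and Psmb8 and Psme3 those in Macrophage-like cells. Psme3 (0.66, adjusted p = 0.0030 with TMM) did not pass there without Control replicate 1 (0.31, adjusted p = 0.27), EC-Foxc-DKO replicate 1 (0.34, adjusted p = 0.25) or EC-Foxc-DKO replicate 2 (0.40, adjusted p = 0.11).

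**Figure D4:**
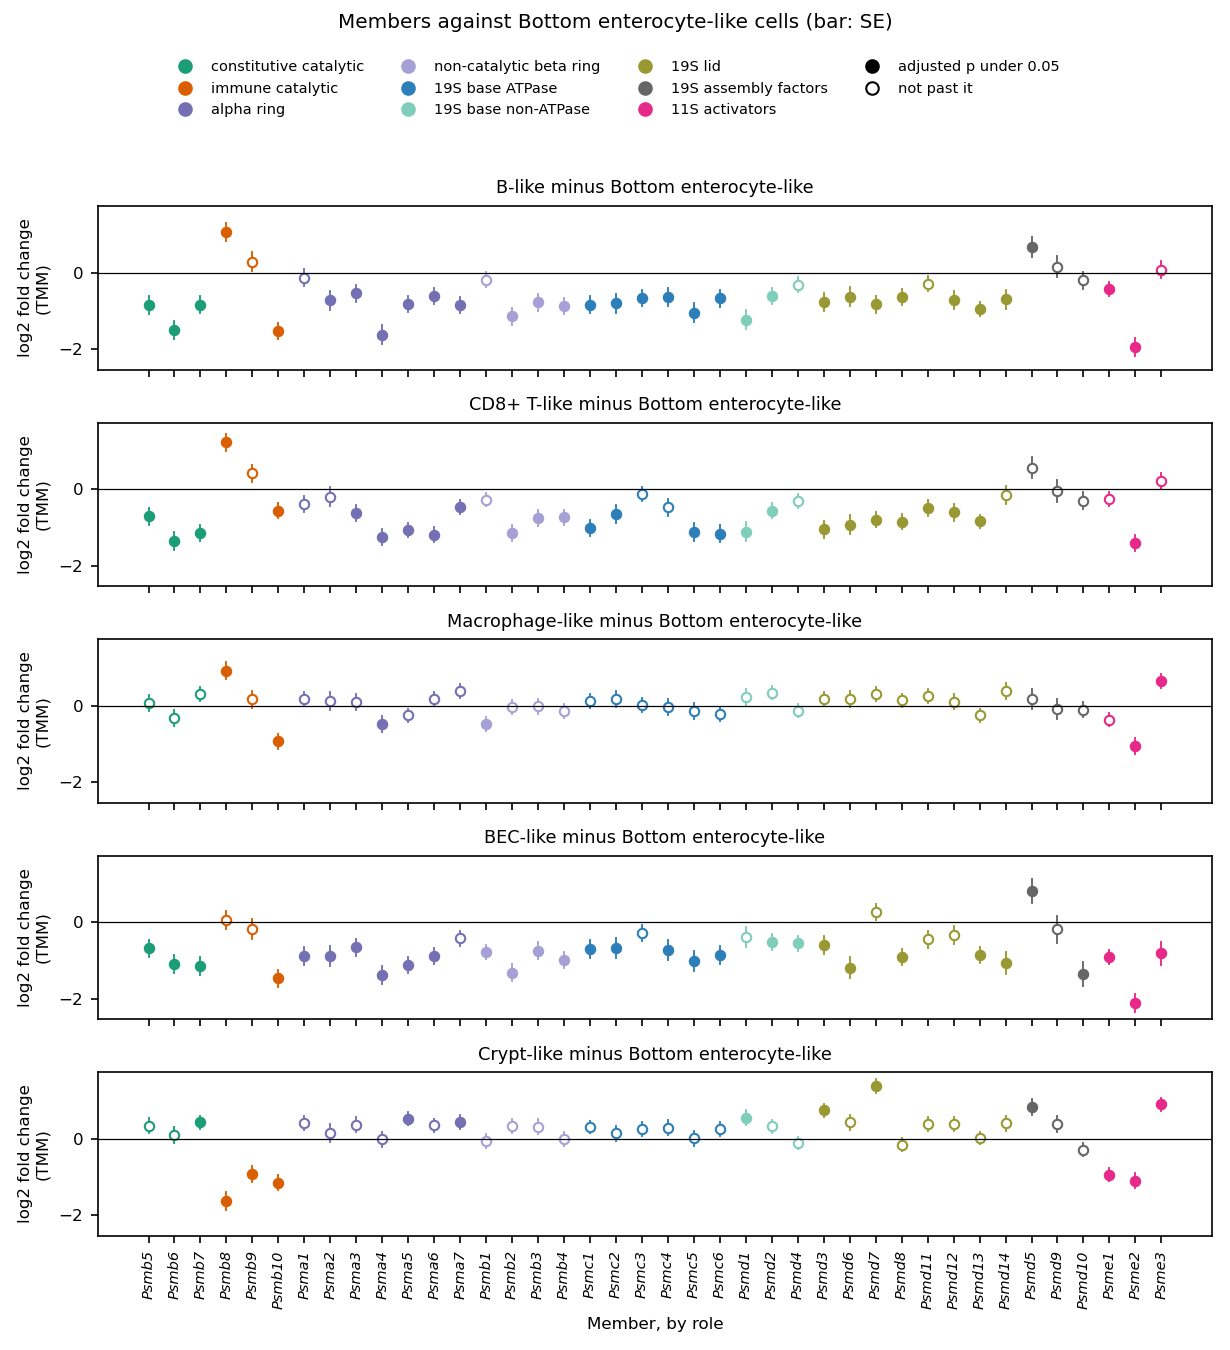
Log2 fold change of 40 members in 5 cell types against Bottom enterocyte-like cells with TMM scaling, grouped by role, with bars for the SE (4 mice, mouse as a block). Filled points passed an adjusted p of 0.05. Psmb8 is raised in B-, CD8+ T- and Macrophage-like cells, and Psme2 is lowered in all 5 comparisons.

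Of the immune subunits, Psmb8 was higher in B-like cells (log2 fold change 1.07, SE 0.23, adjusted p = 0.00016), in CD8+ T-like cells (1.23, SE 0.22, adjusted p = 1.4e-05) and in Macrophage-like cells (0.92, SE 0.22, adjusted p = 0.00052) than in Bottom enterocyte-like cells, and lower in Crypt-like cells (-1.63, SE 0.23, adjusted p = 3.3e-07). Without EC-Foxc-DKO replicate 1, the mouse with most B-like cells, the difference in B-like cells was 0.58 (adjusted p = 0.093). In BEC-like cells Psmb8 differed by 0.07 (adjusted p = 0.82) with TMM but was higher with library size (0.80, adjusted p = 0.0020). Psmb9 was lower in Crypt-like cells with TMM (-0.91, SE 0.22, adjusted p = 0.00053), a call that library size did not give (-0.42, adjusted p = 0.084). In the other 4 types, its difference lay between -0.18 and 0.42 and did not pass the test with TMM, although with library size it was higher in CD8+ T-like cells (0.94, adjusted p = 0.00046). Psmb10 was lower in B-like (-1.52, SE 0.22, adjusted p = 3.4e-07), BEC-like (-1.46, SE 0.22, adjusted p = 9.3e-07), Crypt-like (-1.14, SE 0.19, adjusted p = 5.0e-06) and Macrophage-like cells (-0.92, SE 0.19, adjusted p = 0.00011) under all 3 settings. In CD8+ T-like cells its log2 fold change was -0.55 (adjusted p = 0.013) with TMM and -0.04 (adjusted p = 0.84) with library size.

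The member lowered most in each of the 4 comparisons outside the crypt was Psme2, with log2 fold changes of -2.11 in BEC (adjusted p = 2.2e-09), -1.94 in B (8.9e-09), -1.40 in CD8+ T (8.1e-07) and -1.06 in Macrophage-like cells (3.9e-05). It was lower in Crypt-like cells too (-1.09, adjusted p = 2.9e-05), and all 5 calls held under the 3 settings. The reference itself had the highest mean CPM of Psme2 (431) and of Psmb10 (236) among the 15 types. The lower calls of these 2 members are thus relative to their peak type. The alpha subunit Psma4 was among the next, at -1.61 in B, -1.37 in BEC, -1.25 in CD8+ T and -0.48 in Macrophage-like cells, the last of these with TMM but not with library size. Among the constitutive catalytic subunits, Psmb6 was lowered most in lymphocytes with TMM (-1.5 in B and -1.35 in CD8+ T-like cells). Psmb5 (-0.83 and -0.70) and Psmb7 (-0.83 and -1.13) were lower there as well. With library size, Psmb5 did not pass in CD8+ T-like cells (-0.19, adjusted p = 0.38). In BEC-like cells the 3 were at -0.68, -1.08 and -1.14 (Psmb5, Psmb6 and Psmb7) with TMM, whereas 0 of 3 passed with library size and Psmb5 stood at 0.04. Psmb5 was at -0.58 (adjusted p = 0.068) with TMM but without EC-Foxc-DKO replicate 1. The marker sums beside these comparisons were uneven: macrophage markers summed to 17.8 to 2191 CPM and CD8+ T markers to 4.46 to 2702 CPM in the BEC-like cells of the 4 mice, and Bottom enterocyte markers to 3345 to 33802 CPM in Crypt-like cells. Their part in these differences was not tested.

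In Crypt-like cells the members that passed in both directions had distinct roles. The 8 higher members were Psmd7 (1.39, SE 0.17, adjusted p = 3.4e-08), the nuclear activator Psme3 (0.91, adjusted p = 4.0e-05), the 19S assembly chaperone Psmd5 (0.84), and Psmd3, Psmd1, Psma5, Psma7 and Psmb7 (0.44 to 0.75). The 5 lower members were Psmb8, Psmb9, Psmb10, Psme1 (-0.93, adjusted p = 3.3e-05) and Psme2, that is the 3 immune subunits and both subunits of the interferon-inducible 11S activator. Of these 13, Psma7 and Psmb9 did not keep their call under all 3 settings. The call of Psmb7 (0.44, adjusted p = 0.027) was lost without any 1 of the 4 mice (0.17 to 0.24), and that of Psmd5 without Control replicate 1 (0.58, adjusted p = 0.070) or EC-Foxc-DKO replicate 2 (0.45, adjusted p = 0.12). With 1 mouse left out, only 3 to 5 members were higher in Crypt-like cells. Further calls among Psmd3, Psmd1, Psma5 and Psma7 were thus lost as well. Psmb7 also lost its call with up to 20% mitochondrial UMIs (0.20), without the mouse as a block (0.25) and without the filter on low counts (0.17). Each fit with a mouse left out took the filter and TMM anew. A shift of the scaling thus cannot be told apart from the mouse left out. Psmd5 was also the only member higher in BEC-like cells (0.84, adjusted p = 0.020) and, beside Psmb8, the only one higher in B-like cells (0.68, adjusted p = 0.027), both with TMM. Its level was low, at 33.6, 49.0, 32.5 and 25.5 CPM in BEC-like and 11, 9.75, 14.2 and 11.4 CPM in Bottom enterocyte-like cells. In BEC-like cells the call was lost without Control replicate 1 (0.75, adjusted p = 0.090), Control replicate 2 (0.49, adjusted p = 0.24) or EC-Foxc-DKO replicate 1 (0.98, adjusted p = 0.051), and in B-like cells without any 1 of the 4 mice (0.30 to 0.53).

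Genes that act beside the proteasome were read against the shares of all genes called higher and lower with TMM. These were 38.7% and 32.8% in B, 38.1% and 32% in CD8+ T, 39.7% and 29% in Macrophage, 35.7% and 29.3% in BEC and 28.8% and 28.7% in Crypt-like cells. The shares with library size or DESeq2 were not counted. Of 12 class I antigen presentation genes, 0 were higher and 9 lower in Crypt-like than in Bottom enterocyte-like cells. Among them were the peptide transporter subunit Tap2 (-2.08), the loading factor Tapbp (-1.85) and the light chain B2m (-1.74). The class I activator Nlrc5 (-2.30, SE 0.98) passed only narrowly (adjusted p = 0.045). With library size the counts were 0 and 6. In CD8+ T-like cells 8 were higher and 3 lower, with Nlrc5 at 6.13 and Tap2 at 1.55 and the chaperone Canx at -1.92, and in B-like cells 5 and 4, with Nlrc5 at 4.18 and Tap1 at 1.55. In BEC-like cells 6 were higher and 2 lower, and in Macrophage-like cells 5 and 2. The counts in B-like and Macrophage-like cells were near these shares. The median log2 fold change of the list was -1.46 in Crypt, 0.76 in CD8+ T, 0.52 in BEC, 0.36 in B and 0.34 in Macrophage-like cells. With library size, 7 were higher and 3 lower in B, 9 and 1 in BEC and 7 and 0 in Macrophage-like cells, and with DESeq2 3 and 2 in the last. Of 10 genes of the interferon gamma pathway, 0 were higher and 7 lower in Crypt-like cells (0 and 4 with library size), led by the kinase Jak2 (-1.84), the receptor chain Ifngr2 (-1.69) and the transcription factors Irf1 (-1.55) and Irf9 (-1.03). The counts were 6 higher and 3 lower in B, 6 and 1 in CD8+ T, 7 and 2 in Macrophage and 3 and 3 in BEC-like cells (7 and 2 with library size in the last), where the count with TMM was near the shares of all genes. The median of this list was -1.005 in Crypt, 0.88 in B, 0.78 in CD8+ T, 1.02 in Macrophage and 0.43 in BEC-like cells. The inducible GTPase Gbp2 led all 4, at 8.31 in BEC, 6.87 in CD8+ T, 5.64 in Macrophage and 4.57 in B-like cells. Ifngr2 was lower in CD8+ T-like (-5.67) and BEC-like cells (-3.32), and the transcription factor Irf8 was lower in BEC-like (-2.22) and higher in B-like (2.09) and Macrophage-like cells (1.13).

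Of 15 listed proteasome genes outside the rule, 14 were tested. In Crypt-like cells 6 were higher and 2 lower (8 and 0 with library size, 6 and 6 with DESeq2). The genes raised most were the 4 chaperones that assemble the alpha ring, Psmg3 (3.58), Psmg2 (1.96), Psmg1 (1.64) and Psmg4 (1.51). In Macrophage-like cells 5 were higher and 2 lower, led by Psmg4 (2.48), Psmg3 (2.41) and the deubiquitinase Usp14 (1.32), and in B-like cells 3 were higher and 3 lower, with Psmg4 at 2.05, Psmg3 at 1.84 and the core maturation factor Pomp at -1.65. In Macrophage-like cells the share higher was near that of all genes (39.7%), and in B-like cells it was below it (38.7%). The list's median was 0.29 in Crypt, -0.09 in Macrophage and -0.31 in B-like cells. The counts with DESeq2 were 5 and 5 in Macrophage and 3 and 8 in B-like cells, and with library size 5 and 0 in Macrophage-like cells. In CD8+ T-like cells 3 were higher and 5 lower, beside 38.1% and 32% of all genes. Psmg3 (1.82) and Psmg4 (1.37) were higher there, and Pomp (-1.36) was lower. In BEC-like cells 2 were higher and 3 lower, beside 35.7% and 29.3% of all genes. Psmg4 (1.66) was higher there, and Uchl5 (-2.04) and Pomp (-1.18) were lower. With library size the counts were 3 and 2 in CD8+ T and 8 and 2 in BEC-like cells. The protease Ddi2, which processes the proteasome gene activator Nfe2l1, was lower in CD8+ T-like (-1.55) and B-like cells (-1.43), and Nfe2l1 itself was higher in BEC-like cells (1.55).

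The genotypes were compared within the 8 cell types that had 10 cells in every mouse, with 2 Control and 2 EC-Foxc-DKO mice. No member passed: 0 of 36 tested in B, 0 of 35 in BEC, 0 of 40 in Bottom enterocyte, 0 of 39 in CD8+ T, 0 of 41 in Crypt, 0 of 21 in Enteric glia, 0 of 40 in Macrophage and 0 of 25 in Plasma-like cells by edgeR, and 0 in every type by DESeq2. Over all genes, 0% passed by edgeR in 7 types and 0.0889% in Plasma-like cells (1 of 1125). By DESeq2, 2 of 13302 passed in BEC, 3 of 15367 in Bottom enterocyte and 1 of 13409 in CD8+ T-like cells. It also passed 2 of 15429 in Crypt-like, 2 of 11151 in Plasma-like and 0 in B-, Enteric glia- and Macrophage-like cells. At an unadjusted p under 0.05, edgeR gave 1 member in B-like cells and 0 in the others, and DESeq2 gave 0 in all 8. Among all genes, edgeR gave 68 of 3413 in B, 97 of 3487 in BEC and 282 of 9665 in Bottom enterocyte-like cells. It gave 105 of 4809 in CD8+ T, 229 of 9276 in Crypt and 38 of 1644 in Enteric glia-like cells. In Macrophage-like cells it gave 150 of 6860 and in Plasma-like cells 72 of 1125. The share of all genes with DESeq2 was not counted at this threshold. The member in B-like cells was Psma4 (log2 fold change 0.87, SE 0.41, unadjusted p = 0.045, adjusted p = 1.00), at 64.4 and 63.0 CPM in Control and 100.2 and 128 CPM in EC-Foxc-DKO mice. In the other types the member with the lowest p was Psmd9 in Macrophage (-1.06, SE 0.46), Psme3 in CD8+ T (0.79, SE 0.36), Psmd2 in Crypt (0.64, SE 0.29), Psmb3 in Enteric glia (-0.84, SE 0.44) and in Plasma (0.61, SE 0.36), Psme1 in Bottom enterocyte (-0.37, SE 0.22) and Psmd4 in BEC-like cells (-0.54, SE 0.36). The SE of Psmb8 was 0.21 in Bottom enterocyte-like and 0.35 in BEC-like cells, and differences of over 2 SE, such as that of Psma4 in B-like cells, did not pass with 2 mice a group.

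In BEC-like cells, the cells that the Cdh5 promoter of the Cre transgene marks, Psmb8 was at 262 and 276 CPM in Control and 253 and 153 CPM in EC-Foxc-DKO mice (log2 fold change -0.37, SE 0.35, adjusted p = 1.00). The 2 EC-Foxc-DKO mice were farther apart than the group means. The ratio of immune to constitutive subunits there was 1.25 and 1.45 in Control and 1.30 and 0.73 in EC-Foxc-DKO mice. An exact two-sided test of 2 against 2 mice cannot give a p below 0.33.

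The low value in EC-Foxc-DKO replicate 2 recurred across cell types. This mouse had the lowest immune to constitutive ratio in 9 of the 13 types in which at least 3 mice, itself included, had 10 cells, and the highest in 0, while each of the other mice had the lowest in 2 types. In Goblet/Paneth-like cells its ratio was 0.22 (95% interval 0.18 to 0.26) against 0.93 and 1.20 in the other 2 mice, and in Bottom enterocyte-like cells 0.74 (0.71 to 0.78) against 0.95 to 1.04 in the other 3. Crypt-like cells did not share this, since its ratio of 0.33 lay between those of the others. The immune subunits summed in CPM were lowest in this mouse in 9 of the 13 types, and the constitutive ones highest in 7. The summed interferon gamma pathway genes were lowest in it in 7 of 13 types and the class I genes in 5, with the class I genes highest in 5. Bottom enterocyte markers were high in the same mouse in several epithelial types. They summed to 115133 CPM in its Bottom enterocyte-like cells against 63355 to 67116 CPM in the other mice, to 21158 CPM in Goblet/Paneth-like cells against 8774 and 4888 CPM, and to 52825 CPM in Sprr-high epithelial-like cells against 23569 and 23929 CPM. They were also highest in its Crypt-like cells (33802 CPM), whose ratio was not the lowest, and lowest in its Tuft-like cells (5417 CPM). Their part in the ratio was not tested. The library is 1 of 2 of its genotype, so the mouse and its library cannot be told apart, and the part of the interferon genes in the ratio was not tested.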

How the data were processed

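The authors deposited raw UMI counts per gene and barcode, 1 matrix per mouse, made from 10x Genomics 3′ v3.1 libraries with Cell Ranger on mm10 (version 4.0.0 in the submitters' processing notes and headers; the methods name another). Empty droplets had been removed and counts were not normalized. A joined table of 18407 genes served only to define the genes behind the mitochondrial share. Cells with at most 10% of UMIs on 13 mitochondrial genes were kept. Genes with a mean under 0.001 were left out of the clustering only. Scanpy 1.11.5 was used for clustering (15 components, 15 neighbours, Leiden resolution 0.5) without the members among the variable genes. A cluster was named from at least 3 markers at 2-fold and in 10% of cells, thresholds set after the clusters were seen. The names were rebuilt here, which may itself make values differ from the study's. No doublet was removed in the main setting, so mixed cells may remain. The automatic threshold of Scrublet marked 0 to 8 cells per library. An assumed rate of 0.8% per 1000 barcodes gave 10 to 161, the cells removed in the alternative with the highest Scrublet scores.

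Counts were summed per mouse and type and tested with edgeR 4.0.16 (filterByExpr, TMM, glmQLFit and glmQLFTest, Benjamini-Hochberg, 0.05). The fits were also run on simulated data in which few genes changed, as many up as down. Such data cannot check the scaling where many genes differ, as between these cell types. DESeq2 1.42.0 in R 4.3.3 was an alternative. The mouse is the replicate. CPM is per 1000000 UMIs of the same mouse and type, without TMM. The filter passed 40 of 43 members between cell types, and 21 to 41 between genotypes. Named with values were Psmb5 to Psmb11, Psma8, Psmc3ip and Psme1 to Psme3, the 3 members with the largest log2 fold change past the threshold in each direction of a comparison or else the one with the lowest p, and up to 4 genes of each other list; further genes were named after their values were seen. The members and gene lists were chosen with earlier results of these data known. Positions are from GENCODE on GRCm38, the assembly mm10 names. The counting used strand by the Cell Ranger default, and Psma2 and Psmd12 are overlapped by another counted gene on their own strand. One further promoter motif that was searched is not reported here.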

Additional observations from a re-analysis of the deposited data

How the results depend on the processing

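For the counts between cell types in this section, the share of all genes called was not counted. Beside the changes of scaling given with the results, the number of members higher than in Bottom enterocyte-like cells moved as follows. Without the replicate block (the mouse left out of the model) it was 1 in B, 1 in Macrophage and 4 in Crypt-like cells. With up to 20% mitochondrial UMIs it was 1 in B and 4 in Crypt-like cells, and without a filter on low counts 2 in CD8+ T, 0 in BEC and 5 in Crypt-like cells. With the highest Scrublet scores removed it was 2 in CD8+ T-like cells, as with DESeq2, and DESeq2 gave 2 in BEC-like cells. Library size gave 5 in CD8+ T, 18 in Macrophage, 4 in BEC and 33 in Crypt-like cells. The members lower in Macrophage-like cells numbered 11 with DESeq2, 2 with library size, 8 without the filter and 7 with up to 20% mitochondrial UMIs, those in CD8+ T and BEC-like cells 12 and 4 with library size, and those in Crypt-like cells 9 with DESeq2. Leaving out each mouse in turn gave 0 to 1 higher members in B and in BEC, 1 to 2 in Macrophage and 3 to 5 in Crypt-like cells, with 6 to 9 lower members in Macrophage-like cells; each of the 4 mice moved the B and Crypt counts by over 1.5 times, every mouse but Control replicate 2 those in Macrophage, and every mouse but EC-Foxc-DKO replicate 2 that in BEC-like cells. Psmb5 in BEC-like cells turned to 0.043 (adjusted p = 0.89) with library size. The mean immune to constitutive ratio became 2.21 in CD4+ T and 0.81 in Tuft-like cells with up to 20% mitochondrial UMIs, and 1.56 in Middle enterocyte-like cells at resolution 1.0. Each fit with a mouse left out took the filter on low counts and TMM anew. A shift of the scaling thus cannot be told apart from the mouse left out. Apart from the changes of scaling, whose construction sets the level, the cause was not tested. Between genotypes, the replicate numbers share no source in the labels, and same-numbered mice did not deviate together (correlation -0.33 to 0.03). A replicate block on them gave 0 members in each of the 8 types, and the crossed pairing, added after the data were seen, also gave 0. Of all genes, the block called 1 of 3413 in B, 6 of 3487 in BEC and 3 of 9665 in Bottom enterocyte-like cells. It called 1 of 4809 in CD8+ T-like and 1 of 1125 in Plasma-like cells. The crossed pairing called 31 of 9665 in Bottom enterocyte, 13 of 1125 in Plasma and 3 of 9276 in Crypt-like cells. It called 1 of 3413 in B-like and 1 of 4809 in CD8+ T-like cells. Plasma-like cells had no named cluster with up to 20% mitochondrial UMIs, so that no value was made there. Depth limits the small types most, since the ratio in Control replicate 2 of the B-like cells rested on 44 UMIs in all.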
